A study of Mus musculus with 23 samples.

Results

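The Hox genes encode homeodomain transcription factors that give cells their position along the body axis. The measured members were all genes whose symbol is Hoxa, Hoxb, Hoxc or Hoxd followed only by a number. The mouse gene table holds 39 of them, and 33 had a probe set that names them alone, out of 18193 genes measured in all. Each gene is represented by the probe set with the highest mean intensity over all arrays. The cells came from LLC, a mouse line grown from a Lewis lung carcinoma, and were 8 subclones of it, numbered 2, 3, 6, 18, 19, 23, 24 and 28. All were derived from the parental line by limiting dilution and maintained with 10% serum, and all were kept without serum for 24 h before total RNA was taken. No transgene, drug or gene deletion is named for any of them. Each subclone is a single clone measured on 3 Affymetrix arrays, except subclone 6 with 2, which makes 23 arrays. The labels name no parental sample and no control subclone, so each subclone was set against the equally weighted mean of the other 7.

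Hox genes lie in 4 clusters, each on its own chromosome, and a gene's number gives its place in the cluster. In the embryo, low-numbered genes at the 3′ end of a cluster are switched on earlier and further forward, and high-numbered genes at the 5′ end later and further back, and Polycomb and trithorax proteins keep the resulting pattern through cell division. Hox proteins bind DNA together with TALE homeodomain cofactors of the Pbx, Meis and Pknox families. In the lung, genes from the 3′ and middle stretches of the A and B clusters are the better known members, and Hoxa5 is needed for normal development of the mouse airway.

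The A cluster on chromosome 6 had 9 of its 11 genes measured. The B cluster on chromosome 11 had 9 of 10, the C cluster on chromosome 15 had 7 of 9 and the D cluster on chromosome 2 had 8 of 9. Genes without a probe set of their own, among them Hoxa6, Hoxb8, Hoxc11, Hoxc12 and Hoxd4, were not analysed here. Levels are log2(intensity + 16), so a fold on this scale understates the change of a dim gene, and levels of different genes cannot be set against each other because each probe set has its own brightness. Arrays had medians between 40.83 and 45.74 intensity units. The arrays of a subclone are called biological replicates, without a word on separate cultures, so the p-values measure the spread between these arrays.

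For orientation in the genome, 5 promoters are shown, picked after their values were seen from the Hox genes that differed between subclones and had a sequence: Hoxa11 and Hoxc4 for their single distinct subclone, and 3 adjacent genes of the D cluster. Each line is the 250 bases before the gene's start (RefSeq, GRCm38.p6), read in the direction of the gene, with every CG pair in capitals, the dinucleotide at which mammalian DNA is methylated. In all, 22 of the 39 Hox genes had such a sequence. Hoxa11 is at chr6:52245811-52246060 on the minus strand, Hoxc4 at chr15:103034145-103034394, and Hoxd8, Hoxd9 and Hoxd10 at chr2:74704365-74704614, chr2:74697513-74697762 and chr2:74691641-74691890, the last 4 on the plus strand.
Hoxa11: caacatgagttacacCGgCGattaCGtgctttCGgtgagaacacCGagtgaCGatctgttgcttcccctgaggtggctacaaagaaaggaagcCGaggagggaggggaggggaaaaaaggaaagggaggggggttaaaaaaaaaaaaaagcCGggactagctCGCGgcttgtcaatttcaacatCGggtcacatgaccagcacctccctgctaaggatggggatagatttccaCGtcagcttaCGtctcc
Hoxc4: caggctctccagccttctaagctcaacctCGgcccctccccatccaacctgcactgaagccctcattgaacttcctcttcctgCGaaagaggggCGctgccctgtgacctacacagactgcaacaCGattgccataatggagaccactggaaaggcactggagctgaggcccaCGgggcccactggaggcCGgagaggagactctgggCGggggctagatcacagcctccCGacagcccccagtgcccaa
Hoxd8: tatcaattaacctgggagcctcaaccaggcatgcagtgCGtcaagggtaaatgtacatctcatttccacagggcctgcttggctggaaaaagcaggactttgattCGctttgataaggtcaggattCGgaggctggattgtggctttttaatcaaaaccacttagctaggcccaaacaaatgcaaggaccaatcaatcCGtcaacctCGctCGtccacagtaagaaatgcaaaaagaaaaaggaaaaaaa
Hoxd9: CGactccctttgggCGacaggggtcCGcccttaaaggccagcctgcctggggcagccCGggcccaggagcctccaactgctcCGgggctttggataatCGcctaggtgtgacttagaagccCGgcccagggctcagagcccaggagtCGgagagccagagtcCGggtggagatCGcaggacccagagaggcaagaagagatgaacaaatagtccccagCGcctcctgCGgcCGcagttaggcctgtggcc
Hoxd10: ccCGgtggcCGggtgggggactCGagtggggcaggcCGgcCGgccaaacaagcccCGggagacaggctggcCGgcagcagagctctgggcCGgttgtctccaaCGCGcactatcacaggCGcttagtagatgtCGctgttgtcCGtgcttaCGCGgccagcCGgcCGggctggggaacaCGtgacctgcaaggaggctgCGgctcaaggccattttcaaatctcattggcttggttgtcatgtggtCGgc
The Hoxa11 and Hoxd9 windows held 13 CG pairs each, a count reached by 31.5% of all 32851 promoter windows. The Hoxd10 window held 20, a count reached by 17.9% of windows, the Hoxc4 window 8, reached by 43.0%, and the Hoxd8 window 6, reached by 50.4%. Over the 24 windows of Hox genes, some of which have more than 1, the median was 12.5 CG pairs, against 6 over all windows. The motif TGATTNAT, in which Pbx and Hox proteins bind side by side, was searched on both strands and found in none of the 5 windows, in 8.33% of the 24 windows of Hox genes and in 2.82% of all windows. TTTATNG, a motif of the 5′ Hox proteins whose matches can share bases with those of the first, was also in none of the 5, in 8.33% of the windows of Hox genes and in 9.81% of all windows. These counts describe the letters of the reference and say nothing of methylation or binding in these cells, which were not measured.

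Which Hox genes were expressed was judged against a floor of 5.64, an intensity of 33.8. It is the 95th percentile, over all arrays, of 74 olfactory, vomeronasal and taste receptor genes, which such cells have little use for. A gene counted as above the floor in a subclone when every array of that subclone was above it. By this measure 21 of the 33 Hox genes were above the floor in at least 1 subclone, against 65.1% of all genes, and 13 were above it in all 8 subclones, against 56.4% of all genes. The 13 were Hoxa2, Hoxa3, Hoxa5, Hoxa7 and Hoxa10, then Hoxb2, Hoxb3, Hoxb4 and Hoxb6, then Hoxd3, Hoxd8, Hoxd9 and Hoxd10. No C cluster gene was among them.

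The other 8 were above the floor in some subclones only. Hoxa11 passed in 7, all but subclone 18, and Hoxb5 in 7, all but subclone 3. Hoxc6 passed in 5, namely 3, 6, 19, 23 and 28, and Hoxa9 in subclones 2, 3 and 6. Hoxb9 passed in subclones 18 and 23, Hoxb13 in subclone 18 alone, and Hoxc4 and Hoxc9 in subclone 19 alone. Apart from Hoxa11, all of these were close to the floor where they passed, not only the last 4. Hoxa9 averaged 5.88, 5.71 and 5.72 in subclones 2, 3 and 6. With a floor at the 99th percentile of the receptor genes (6.49), 14 genes were above it in at least 1 subclone, and the 7 that dropped out were Hoxa9, Hoxb5, Hoxb9, Hoxb13, Hoxc4, Hoxc6 and Hoxc9. At that floor 11 genes passed in all 8 subclones. Hoxa2 then failed in subclone 3, and Hoxd3 passed only in subclones 19, 23 and 24.

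By position, none of the 2 measured genes of paralog group 1 (Hoxb1 and Hoxd1) passed the floor anywhere. Among groups 1 to 4, 7 of 10 passed in at least 1 subclone, among groups 5 to 8, 6 of 9, and among groups 9 and 10, 6 of 7. The share over all genes was 65.1%. Of the 7 measured genes of groups 11 to 13, which pattern limb ends, genitalia and the rear of the axis, 2 passed (Hoxa11 and Hoxb13) and 0 passed in all 8 subclones. By cluster, 7 genes of A, 7 of B, 3 of C and 4 of D passed in at least 1 subclone. The number of Hox genes above the floor differed little, from 15 in subclone 24 to 18 in subclone 19.

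As a check of the labelled cell type, 4 of 6 epithelial markers and 5 of 6 mesenchymal markers were above the floor in at least 1 subclone. The epithelial Cdh1 and Cldn4 and the mesenchymal Col1a1 were under it in all 8. Of 6 lung epithelial markers only Sftpb was above the floor, in all 8 subclones. Nkx2-1, a defining transcription factor of lung epithelium, was under it in all 8 subclones. Ptprc, Cd3e and Itgam, which mark leukocytes, were also under it in all 8, while Cd68 and Csf1r were not. None of 5 endothelial markers passed. Summed over the list, epithelial marker intensities lay between 2104 and 6718 by subclone, mesenchymal ones between 23804 and 28186, lung epithelial ones between 116 and 152, leukocyte ones between 210 and 637 and endothelial ones between 65.7 and 80.0. Each sum can be followed over the subclones, but sums of different lists cannot be set against each other, since probe sets differ in brightness.

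**Figure D1:**
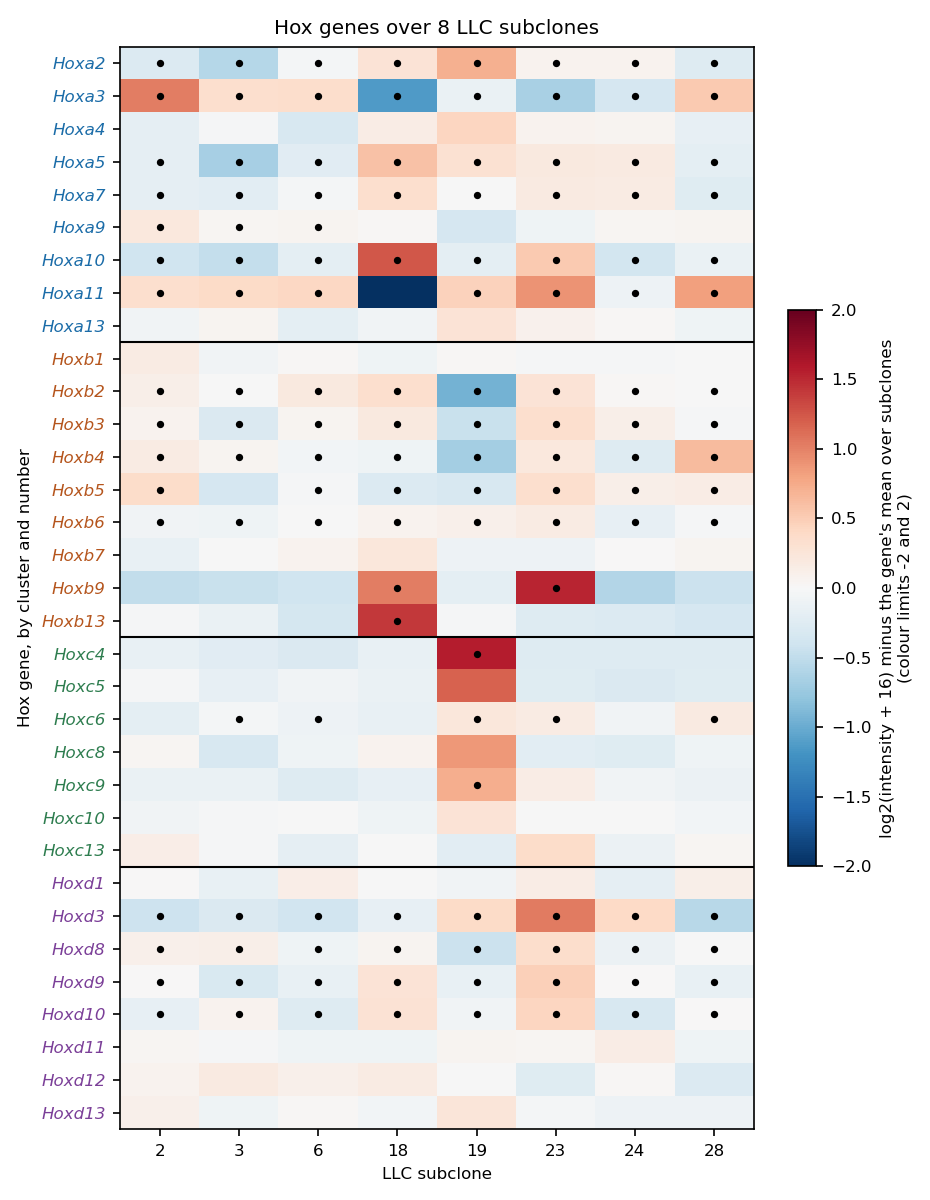
Level of each of the 33 Hox genes (rows, by cluster and number) in each of the 8 subclones (columns), as log2(intensity + 16) minus the gene's own mean over the subclones, on a colour scale from -2 to 2. Dots mark genes above the floor in every array of the subclone. Differences beyond the scale take its end colour. The lowest cell is Hoxa11 in subclone 18, and the C cluster genes stand out in subclone 19.

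A moderated F-test over the 8 subclones (limma, adjusted over all 18193 genes) passed for 24 of the 33 Hox genes, against 61.8% of all genes, so by this test alone most genes on the array differed between subclones. Of these 24, 13 had subclone means at least 1 log2 unit apart, against 12.7% of all genes. Those 13 were 5 genes of A, 4 of B, 3 of C and 1 of D. The median range of subclone means was 0.78 over the Hox genes and 0.49 over all genes. The 9 that did not pass were Hoxa4, Hoxa13, Hoxb1, Hoxb7, Hoxc10, Hoxd1, Hoxd11 and Hoxd13, all under the floor in every subclone, and Hoxc6, whose means lay between 5.69 and 6.10 (adjusted p = 0.0904).

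In each comparison of a subclone with the other 7, a gene was called apart when its adjusted p was under 0.05 and its difference at least 1 log2 unit. The comparisons share arrays, since every subclone is also part of the others' mean. Subclone 18 had 3 Hox genes called apart upward, against 0.857% of all genes, and 2 downward, against 1.79%. Subclone 19 had 2 upward, against 0.885%, and 1 downward, against 0.83%. Subclone 23 had 3 upward, against 0.555%, and 0 downward, against 0.577%. Subclone 2 had 1 upward, against 0.478%, and 0 downward, against 0.627%. Subclones 3, 6, 24 and 28 had 0 by limma, although 17, 12, 16 and 13 of the 33 genes in turn had an unadjusted p under 0.05 in them (43.7%, 33.5%, 39.2% and 43.1% of all genes). In those subclones the background of calls was 0.528% upward and 0.407% downward, then 0.407% and 0.115%, 0.357% and 0.687%, and 0.973% and 0.346%. The size threshold depends on the pseudocount: with 64 in place of 16, 3 Hox genes were called apart in subclone 18 and 0 in subclones 19 and 23.

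The A cluster held the widest range. Hoxa11, which patterns the forearm, kidney and uterus, measured 4.21, 4.56 and 4.54 on the 3 arrays of subclone 18. It measured 7.98, 7.96 and 7.98 in subclone 2, 8.18, 7.92 and 7.98 in subclone 3, 8.08 and 8.02 in subclone 6, and 8.13, 7.99 and 8.19 in subclone 19. It measured 8.46, 8.56 and 8.60 in subclone 23, 7.46, 7.49 and 7.66 in subclone 24, and 8.41, 8.55 and 8.43 in subclone 28. Every array of subclone 18 was under the floor and every other array far above it, with no overlap. The mean was 4.44 ± 0.20 in subclone 18 (SD, n = 3), a difference of -3.66 ± 0.067 log2 units (SE) from the mean of the other 7 (adjusted p = 4.93e-18). Because subclone 18 was under the floor, the fold is better stated against it, as at least 5.50-fold lower than the mean of the other 7. This bound does not hold against every other subclone, since subclone 24 averaged only 7.54. The range over the subclones was 4.10 log2 units. Fewer cells with the transcript and less of it per cell cannot be told apart in such bulk RNA. Hoxa11, like Hoxb2, Hoxb9, Hoxb13, Hoxc4 and Hoxd3 below, had only 1 probe set, so no other could be compared.

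Hoxa11 was also called apart upward in subclone 23, by 1.03 ± 0.067 (adjusted p = 7.27e-10), but the mean of the other 7 there includes subclone 18. Its arrays in subclone 23 overlapped with those of subclone 28. Without the third array of subclone 23 the difference came to 0.997, just under the threshold, and no Hox gene other than Hoxb9 and Hoxd3 was then called apart in that subclone.

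Hoxa11os, a noncoding transcript from the opposite strand at Hoxa11, was looked up after the values of Hoxa11 had been seen. It measured 8.13, 8.49 and 8.43 in subclone 18, and its subclone means lay between 8.33 and 9.25. In subclone 18 its difference from the other 7 was -0.50 (adjusted p = 2.99e-06), and subclone 19, where Hoxa11 was well above the floor, was as low, at 8.33. So the transcript stayed above the floor in the subclone where Hoxa11 did not. Which strand each probe set reads was not checked.

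Hoxa10, the neighbour of Hoxa11 and a gene of limb and uterine patterning, moved the other way in subclone 18. It measured 8.49, 8.77 and 8.60 in subclone 18. It measured 6.92, 7.05 and 6.95 in subclone 2, 6.85, 6.83 and 7.01 in subclone 3, 7.32 and 7.03 in subclone 6, and 7.26, 7.27 and 7.02 in subclone 19. It measured 8.01, 7.81 and 7.87 in subclone 23, 6.81, 7.03 and 7.21 in subclone 24, and 7.17, 7.30 and 7.25 in subclone 28. All 3 arrays of subclone 18 lay above every other array, and subclone 23 lay above the remaining 6. The difference was 1.43 ± 0.079 in subclone 18 (adjusted p = 3.06e-11) and 0.59 in subclone 23 (adjusted p = 5.56e-06). A second Hoxa10 probe set stayed between 4.63 and 4.97, under the floor, in all subclones.

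Hoxa3, which shapes the thymus, parathyroid and throat skeleton, differed at both ends of its range. It measured 9.22, 9.25 and 9.10 in subclone 2 and 6.95, 7.12 and 7.06 in subclone 18. It measured 8.49, 8.42 and 8.62 in subclone 3 and 8.52 and 8.52 in subclone 6. It measured 8.0001, 8.22 and 7.92 in subclone 19, 7.58, 7.75 and 7.25 in subclone 23, 7.82, 8.05 and 7.66 in subclone 24, and 8.47, 8.69 and 8.94 in subclone 28. Subclone 2 lay above all other arrays and subclone 18 below all others. The difference from the other 7 was 1.16 ± 0.098 in subclone 2 (adjusted p = 2.18e-08) and -1.29 ± 0.098 in subclone 18 (adjusted p = 2.65e-09). These calls rest on the brightest of its probe sets. Another Hoxa3 probe set above the floor was highest in subclone 19 and lowest in subclone 3, and its 8 subclone means ran against those of the brighter one (Pearson's r = -0.53 over 8 means). With the mean of each gene's probe sets the difference was 0.21 in subclone 2 and -0.18 in subclone 18, so the pattern of Hoxa3 depends on the probe set.

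The other A cluster genes moved less. Hoxa5 was highest in subclone 18, at 9.48 ± 0.11, 0.67 above the other 7 (adjusted p = 1.70e-09), and lowest in subclone 3, at 8.23 ± 0.11, with a difference of -0.76 (adjusted p = 7.31e-10). All arrays of subclone 18 lay above, and all of subclone 3 below, every other array, and a second Hoxa5 probe set ranked the subclones alike (r = 0.97 over 8 means). Hoxa7, a gene of the trunk skeleton, was also highest in subclone 18, 0.39 above the other 7 (adjusted p = 4.27e-05).
Hoxa2, which patterns the ear and hindbrain, was highest in subclone 19, by 0.81 (adjusted p = 2.87e-09), and lowest in subclone 3, by -0.64 (adjusted p = 7.79e-08), both with no overlap. Hoxa9, a regulator of blood stem cells, had means between 5.32 and 5.88 around the floor, lowest in subclone 19. A second Hoxa9 probe set was highest in subclone 18, at 6.11, and lowest in subclone 2, at 5.29 (r = -0.34 with the brighter one over 8 means). Its means were under the floor in subclones 2, 3 and 6, the ones where the brighter probe set passed. So the pattern of Hoxa9 depends on the probe set as well. Hoxa4 and Hoxa13 stayed under the floor, with means of 4.66 to 5.39 and 4.49 to 4.96.

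**Figure D2:**
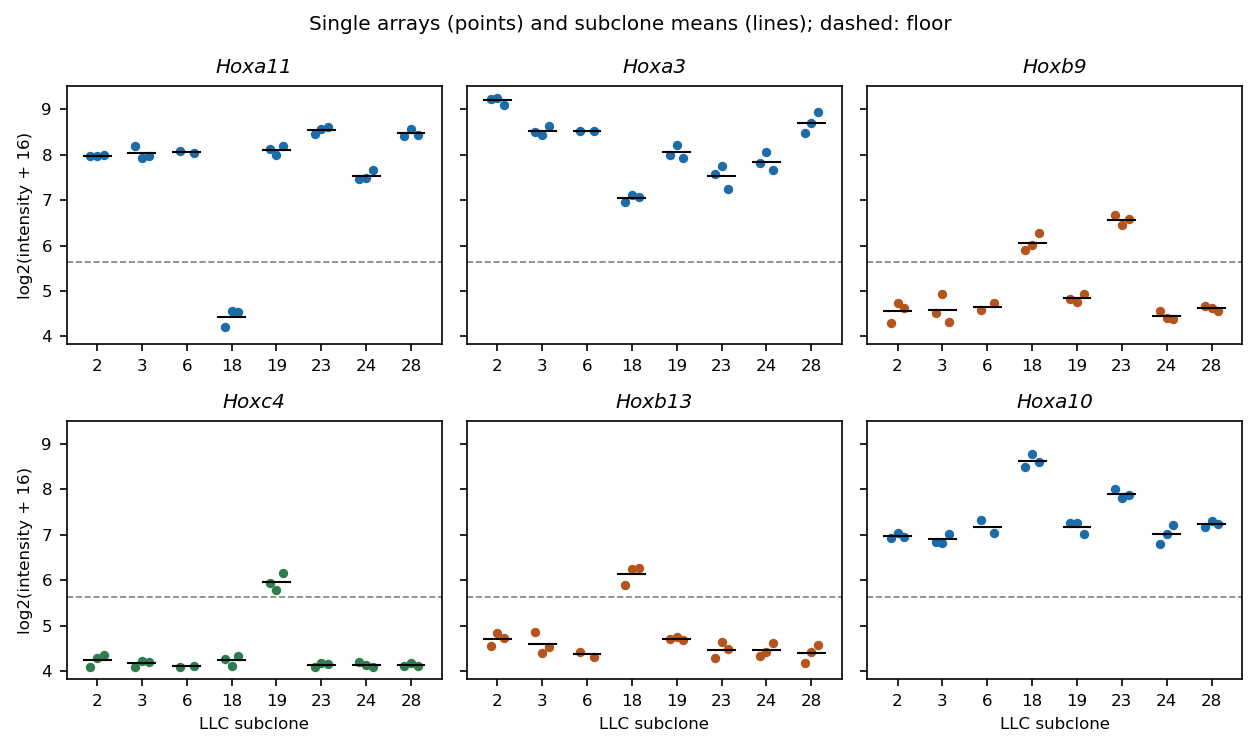
Single arrays (points) and subclone means (lines) of Hoxa11, Hoxa3, Hoxb9, Hoxc4, Hoxb13 and Hoxa10, the 6 Hox genes whose subclone means were furthest apart, as log2(intensity + 16), with the floor of 5.64 dashed. Hoxa11 is under the floor in subclone 18 alone, and Hoxc4 above it in subclone 19 alone.

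In the B cluster, 2 genes of the 5′ end were above the floor in 1 or 2 subclones only. Hoxb9, a gene of the rib cage and mammary gland, measured 5.89, 6.01 and 6.28 in subclone 18 and 6.66, 6.46 and 6.58 in subclone 23. It measured 4.30, 4.74 and 4.62 in subclone 2, 4.52, 4.94 and 4.32 in subclone 3, and 4.57 and 4.73 in subclone 6. It measured 4.83, 4.75 and 4.94 in subclone 19, 4.56, 4.42 and 4.39 in subclone 24, and 4.68, 4.62 and 4.56 in subclone 28. All 6 arrays of subclones 18 and 23 were above the floor and the other 17 under it. The difference from the other 7 was 1.16 ± 0.10 in subclone 18 (adjusted p = 2.19e-08), at least 1.34-fold against the floor, and 1.74 ± 0.10 in subclone 23 (adjusted p = 1.77e-10), at least 1.90-fold. Subclones 18 and 23 are each part of the other's comparison mean, so neither bound holds against every other subclone.

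Hoxb13, the most 5′ gene of the cluster and known from the prostate and tail, measured 5.90, 6.24 and 6.27 in subclone 18. It measured 4.57, 4.85 and 4.73 in subclone 2, 4.86, 4.41 and 4.53 in subclone 3, 4.43 and 4.32 in subclone 6, and 4.71, 4.75 and 4.68 in subclone 19. It measured 4.30, 4.64 and 4.48 in subclone 23, 4.34, 4.43 and 4.61 in subclone 24, and 4.18, 4.43 and 4.58 in subclone 28. Only the arrays of subclone 18 passed the floor. The difference was 1.61 ± 0.099 (adjusted p = 1.39e-10), at least 1.42-fold against the floor.

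Hoxb2, Hoxb3 and Hoxb4 were above the floor in all subclones and had their lowest means in subclone 19. Hoxb2, which patterns the hindbrain and face, measured 7.13, 7.06 and 7.11 in subclone 19, below every other array, with a difference of -1.07 ± 0.053 from the other 7 (adjusted p = 1.25e-11). Hoxb3 averaged 7.57 ± 0.074 in subclone 19, a difference of -0.51 (adjusted p = 2.50e-08), and Hoxb4, a factor of blood stem cell growth, averaged 6.80 ± 0.24, a difference of -0.77 (adjusted p = 4.17e-06). Both lay under every other array there. Hoxb4 was highest in subclone 28, by 0.72 (adjusted p = 9.86e-06), again with no overlap. Second probe sets of Hoxb3 and Hoxb4 followed the brighter ones, with r of 0.91 and 0.88 over 8 means, and were also lowest in subclone 19. Both were dim, with means of 5.33 to 5.66 and 5.09 to 5.76, mostly under the floor. The one of Hoxb3 had a range of 0.33 and did not pass the F-test over probe sets (adjusted p = 0.21).

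Hoxb5, a gene of the lung and shoulder, had means between 5.81 in subclone 3 and 6.51 in subclone 2. Hoxb6 had a range of 0.33 (adjusted p = 0.0322), which did not pass without the first array of subclone 23 or without the first or last array of subclone 24. Hoxb1 and Hoxb7 stayed under the floor. Hoxb5os, a noncoding transcript opposite to Hoxb5, was also looked up after its values had been seen, and its range of 4.52 log2 units (adjusted p = 1.25e-18) exceeded that of every measured Hox gene. It averaged 9.35 in subclone 23, 8.65 in subclone 28, 7.995 in subclone 6 and 7.40 in subclone 2. It averaged 5.91 in subclone 24, and 5.18, 5.13 and 4.83 in subclones 3, 18 and 19, the last 3 under the floor. Hoxb5 itself differed by at most 0.70 over the same subclones.

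**Figure D3:**
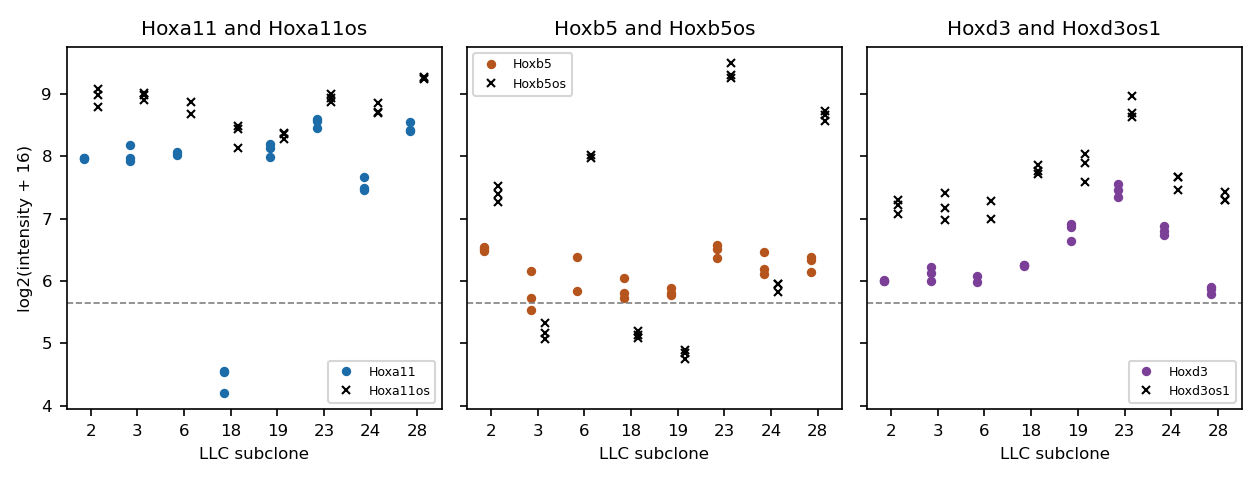
Single arrays of Hoxa11 and Hoxa11os, Hoxb5 and Hoxb5os, and Hoxd3 and Hoxd3os1 in the 8 subclones, as log2(intensity + 16), with the floor of 5.64 dashed. Hoxb5os spans 4.52 log2 units between subclone means, while Hoxb5 spans 0.70.

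In the C cluster 6 of the 7 measured genes had their highest mean in subclone 19, and 4 of them passed the F-test and lay above every other array there. Hoxc4, the most 3′ gene of the cluster, measured 5.94, 5.80 and 6.16 in subclone 19. It measured 4.09, 4.30 and 4.36 in subclone 2, 4.10, 4.22 and 4.20 in subclone 3, 4.10 and 4.13 in subclone 6, and 4.28, 4.11 and 4.35 in subclone 18. It measured 4.09, 4.19 and 4.15 in subclone 23, 4.21, 4.13 and 4.09 in subclone 24, and 4.11, 4.19 and 4.11 in subclone 28. Subclone 19 stood above the floor and every other array under it. The difference was 1.79 ± 0.063 (adjusted p = 1.07e-13), at least 1.25-fold against the floor.

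Its neighbours were highest in the same subclone. Hoxc5 measured 5.65, 5.60 and 5.82 in subclone 19, against 4.13 to 4.60 on the other arrays, a difference of 1.34 ± 0.067 (adjusted p = 1.40e-11) and at least 1.04-fold against the floor. Of its 3 arrays there, 2 were above the floor. Other Hoxc5 probe sets stayed under the floor in all 8 subclones, between 4.20 and 4.56. Hoxc8, a gene of motor neurons and ribs, measured 5.24, 5.13 and 5.78 in subclone 19, against 4.11 to 4.67 elsewhere, 0.99 above the other 7 (adjusted p = 9.41e-07), but it did not count as above the floor in any subclone, and 2 of its 3 arrays in subclone 19 were under it. Hoxc9, which sets the thoracic spinal cord, measured 6.39, 6.39 and 6.32 in subclone 19, against 5.28 to 5.88 elsewhere, 0.83 above (adjusted p = 2.76e-06). Hoxc6 did not pass, at 6.10 ± 0.087 in subclone 19 and 0.25 above the other 7 (adjusted p = 0.0794). Hoxc10 was under the floor throughout, with 0.31 above the other 7 in subclone 19 (adjusted p = 0.0331), and Hoxc13, also under the floor, was lowest in subclone 19, at 4.25. In all, 5 Hox genes lay above every other array in subclone 19 (Hoxa2, Hoxc4, Hoxc5, Hoxc8 and Hoxc9), against 5.46% of all genes. Another 5 lay below (Hoxa9, Hoxb2, Hoxb3, Hoxb4 and Hoxd8), against 3.22%.

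In the D cluster the expressed genes were Hoxd3, Hoxd8, Hoxd9 and Hoxd10, in all 8 subclones. Hoxd3, a gene of the neck vertebrae, measured 7.46, 7.34 and 7.55 in subclone 23 and was above every other array. It averaged 6.81 in subclone 24 and 6.80 in subclone 19, and was lowest in subclone 28, at 5.87, 5.90 and 5.79, below every other array. The difference was 1.18 ± 0.055 in subclone 23 (adjusted p = 6.80e-12) and -0.64 in subclone 28 (adjusted p = 2.32e-08). Hoxd3os1, a transcript opposite to Hoxd3 looked up with the other 2 antisense transcripts, averaged 8.77 in subclone 23, against 7.14 to 7.84 in the other subclones, 1.33 above (adjusted p = 2.05e-09).

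Hoxd8, Hoxd9 and Hoxd10, which act in the trunk and hindlimb, were highest in subclone 23 too. Hoxd8 averaged 10.55 ± 0.074 there, 0.40 above the other 7 (adjusted p = 1.64e-07). Hoxd9 averaged 9.92 ± 0.038, 0.55 above (adjusted p = 2.00e-09), and Hoxd10 averaged 9.22 ± 0.019, 0.49 above (adjusted p = 1.49e-09). With Hoxb9 and Hoxd3 these were the 5 Hox genes above every other array in subclone 23, against 3.46% of all genes. Hoxd8 was lowest in subclone 19, by -0.49 (adjusted p = 9.89e-09), which a second Hoxd8 probe set shared (r = 0.93 over 8 means), and Hoxd9 was lowest in subclone 3, by -0.36 (adjusted p = 5.33e-07). Hoxd1, Hoxd11, Hoxd12 and Hoxd13 stayed under the floor, where Hoxd12 still passed the F-test with a range of 0.46 (adjusted p = 0.0205).

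**Figure D4:**
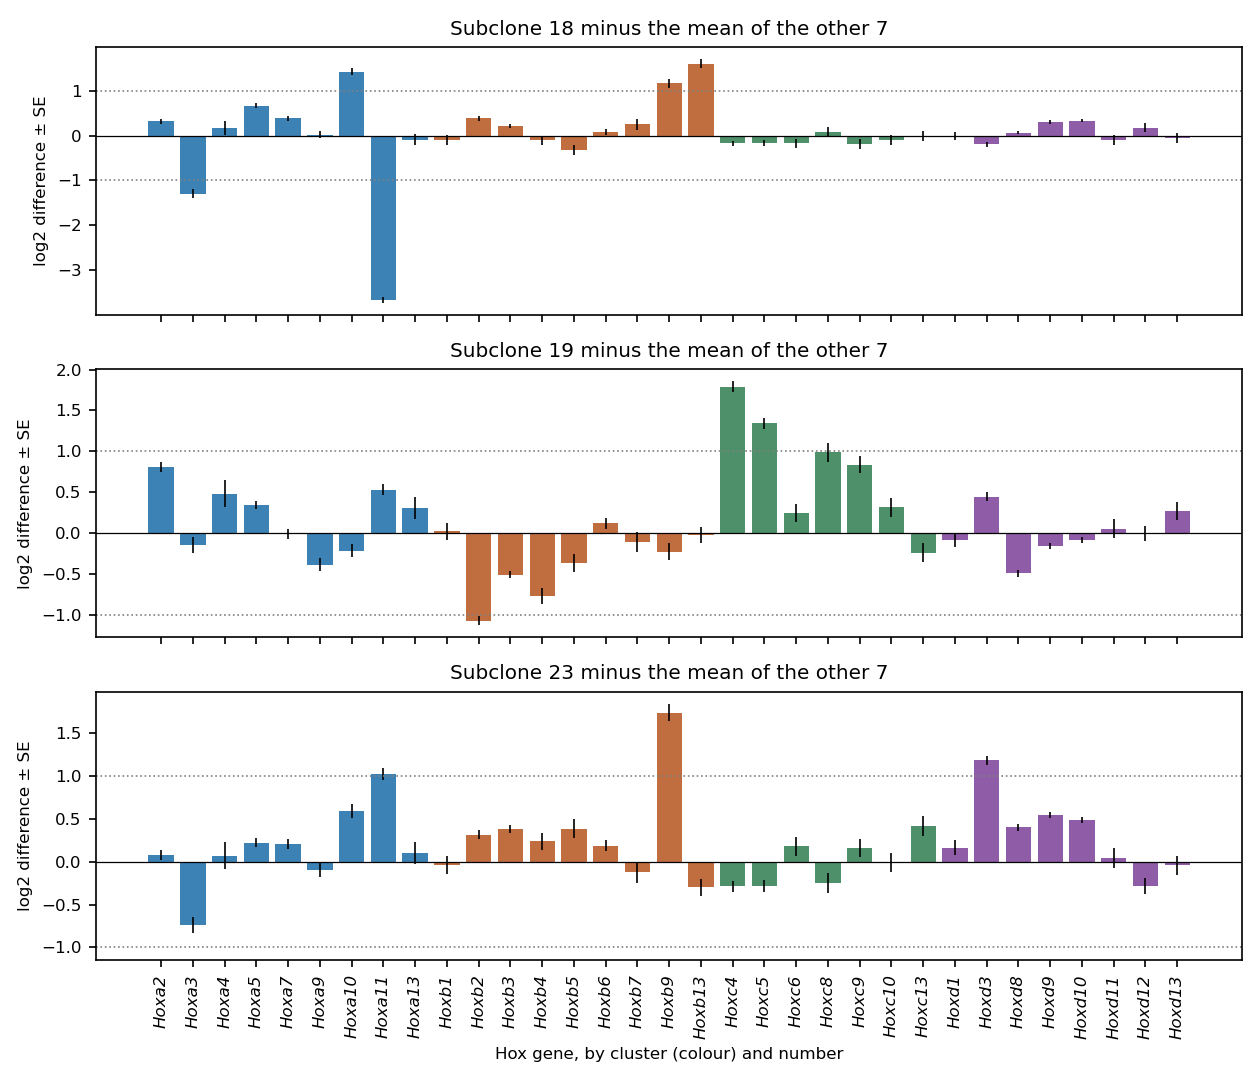
Difference of subclones 18, 19 and 23 from the mean of the other 7 for each Hox gene, in log2 units, ordered by cluster and number, with bars for the difference and lines for its SE. Subclone 18 has its lowest bar at Hoxa11 (-3.66), subclone 19 its highest at Hoxc4 (1.79) and subclone 23 its highest at Hoxb9 (1.74).

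Counted without a size threshold, 14 Hox genes were higher and 5 lower in subclone 23 at an adjusted p under 0.05, against 20.2% and 17.4% of all genes. The median difference there was 0.17 over the Hox genes and -0.01 over all genes. Subclone 18 had 10 higher and 5 lower (21.5% and 21.6% of all genes), subclone 19 had 10 and 9 (24.2% and 17.7%), and subclone 3 had 3 and 12 (19.4% and 18.6%). Subclone 2 had 5 and 8 (15.4% and 20.5%), subclone 6 had 3 and 7 (13.8% and 10.1%), subclone 24 had 4 and 10 (15.2% and 17.1%), and subclone 28 had 3 and 10 (19.2% and 18.2%). Other non-overlapping genes were Hoxa5, Hoxa10 and Hoxb13 upward and Hoxa3 and Hoxa11 downward in subclone 18, against 4.97% and 6.28% of all genes. Subclone 3 had Hoxa2, Hoxa5 and Hoxd9 downward, against 2.75%, subclone 2 had Hoxa3 upward, against 2%, and subclone 28 had Hoxb4 upward and Hoxd3 downward, against 3.95% and 3.58%. No Hox gene lay apart in this way in subclone 6 (background 1.37% upward and 0.561% downward), in subclone 24 (1.68% and 2.66%), downward in subclones 2 (3.21%) and 23 (2.9%), or upward in subclone 3 (3.31%).

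Whether the whole chromosome moved was measured on the other expressed genes of the same chromosome. In subclone 18 the 588 such genes of chromosome 6 had a median difference of -0.16, while the differences there were -3.66 for Hoxa11 and 1.43 for Hoxa10. The 980 such genes of chromosome 11 had a median of 0.02 in subclone 18 and of 0.02 in subclone 23. In subclone 19 the 484 genes of chromosome 15 had a median of -0.01 and those of chromosome 11 a median of 0.10. In subclone 23 the 963 genes of chromosome 2 had a median of 0.01, and in subclone 19, where Hoxd8 differed by -0.49, one of -0.15. Of the 26 measured genes that flank the clusters, 21 passed the F-test and 0 had a range of at least 1 log2 unit, against 61.8% and 12.7% of all genes. The widest were Lnpk at 0.89, Atp5g1 at 0.75, Hibadh at 0.71 and Copz2 at 0.70. The median level of these flanking genes was 9.93, against 6.90 over all genes.

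Across the 8 subclone means, genes next to each other in a cluster, once unmeasured genes and genes under the floor were left out, had a median Pearson's r of 0.47 over 17 pairs. It ran from -0.78 for Hoxa3 and Hoxa5, where the Hoxa3 pattern depends on the probe set, to 0.85. Pairs in the same cluster had a median of 0.36 over 51 pairs, and pairs in different clusters 0.096 over 159. Within the A cluster the median was -0.26 (21 pairs), within B 0.28 (21 pairs), within C 0.69 (3 pairs) and within D 0.58 (6 pairs). The A pairs include those of Hoxa3 and Hoxa9, whose patterns depend on the probe set. In the C pairs, Hoxc4 and Hoxc9 were above the floor only in subclone 19. Hoxa5 and Hoxa7 had r = 0.85, Hoxb2 and Hoxb3 0.83, Hoxc4 and Hoxc9 0.93, and Hoxa10 and Hoxa11 -0.74. The points of each pair come from the same arrays, and several rest on 1 subclone, as for Hoxa11 in subclone 18 and Hoxc4 in subclone 19, so these are descriptions.

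The lists of other genes tied to Hox function were chosen with earlier results of these data known. Of 8 measured TALE cofactors, 5 passed the F-test and 1 of these had a range of at least 1 log2 unit, close to the shares of all genes (61.8% and 12.7%). That was Meis1, which averaged 10.26 in subclone 28 and 9.04 in subclone 19 (range 1.22, adjusted p = 6.41e-13), followed by Meis2 at 0.76, Pbx2 at 0.52 and Pknox1 at 0.41. The median range was 0.38, against 0.49 over all genes.

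Of 29 measured Polycomb genes, which hold Hox genes silent, 28 passed the F-test and 2 of these had such a range (61.8% and 12.7% of all genes). Scmh1, a partner of the Polycomb repressive complex, averaged 7.45 in subclone 18 and 5.78 in subclone 24 (range 1.68). Cbx2, a reader of the Polycomb mark, averaged 8.35 in subclone 18 and 7.35 in subclone 2 (range 1.01). Phc3 and Kdm2b had ranges of 0.94 and 0.87. Of 17 measured trithorax and elongation genes, which keep Hox genes active, 17 passed and 0 reached 1 log2 unit (61.8% and 12.7% of all genes), with Dot1l at 0.94, Ash2l at 0.84, Mllt3 at 0.75 and Rbbp5 at 0.69. The median range was 0.52 over the Polycomb and 0.62 over the trithorax list. Their median levels were 9.77 and 9.46, against 6.90 over all genes, so these shares do not compare genes of like level.

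Retinoic acid and Cdx factors switch on Hox genes in the embryo. Of 19 measured genes of that list 6 passed the F-test, and 2 of these had a range of at least 1 log2 unit, against 61.8% and 12.7% of all genes. Crabp1, which binds retinoic acid in the cytoplasm, had a range of 6.52, with a mean of 12.00 in subclone 6 and of 5.48, under the floor, in subclone 28. Rdh10, an enzyme of retinal synthesis, had a range of 1.32, and Rxra, a partner of the retinoic acid receptors, one of 0.90. Aldh1a1, which makes retinoic acid, passed with means between 4.17 and 5.15, all under the floor. Cdx1, Cdx2 and Cdx4 were under the floor in all 8 subclones. The median level of the list was 5.23, under the floor, against 6.90 over all genes.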

How the data were processed

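Total RNA of 8 LLC subclones was hybridised as biotin-labelled cRNA to 23 Affymetrix arrays, per the labels. The deposited values are linear intensities, 1 per probe set and array, from 0.61 to 17068.52. How the authors summarised and scaled the probes is not given in the sources used here. Detection calls were not used. Array means lay between 412 and 441.1, and for arrays their number limits the precision.

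Of 45101 probe sets, 64 controls were left out, 34945 had 1 gene symbol (34741 checked through Entrez IDs against the GRCm38.p6 gene table), 932 had several and 9160 were unlisted. Only probe sets with 1 symbol were used, 1 a gene (the highest mean intensity over all arrays), which gave 18193 genes, 9010 of them with several probe sets. Probe sets shared by Hoxd4 and Hoxd3 or by Hoxb8 and Hoxb7 were not used. Values were taken as log2(intensity + 16) with no further normalization and no filter on low values.

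One limma model (version 3.58.1, R 4.3.3) with a mean for each subclone gave the moderated F-test and the contrasts of each subclone with the mean of the other 7, each weighted alike, with Benjamini-Hochberg adjustment over all genes. A fold against the floor divides the brighter group's mean by the floor where the mean of the other group lay under it. The steps were tested on simulated data. Full values were given for Hox genes above the floor in at least 1 subclone, every array for the 6 with the largest range, and up to 4 genes for each other list, those with the largest range among genes that passed the F-test. The members and gene lists were chosen with earlier results of these data known, and the 3 antisense transcripts after their values had been seen. Other pseudocounts, a filter, quantile normalization, means over probe sets, an intensity trend, other floors, all other arrays as 1 group, the replicate number as a block and leaving out each array were tried.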

Additional observations from a re-analysis of the deposited data

How the results depend on the processing

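None of the 12 differences of Hox genes called apart changed its sign under any alternative run. The other differences were not rerun. With a pseudocount of 64 in place of 16, 8 Hox genes passed the F-test and spanned 1 log2 unit or more (13 as reported), 3 were called apart in subclone 18 (5 as reported), 0 in subclone 19 and 0 in subclone 23 (3 each as reported), and 1 Polycomb gene had such a range (2 as reported). A larger pseudocount shrinks differences by construction, most for dim genes: Hoxc4 in subclone 19 came to 0.74, Hoxb13 in subclone 18 to 0.74, and Hoxb9 to 0.52 in subclone 18 and 0.88 in subclone 23. Genes above the floor lost their call too: Hoxb2 in subclone 19 came to -0.86, Hoxd3 in subclone 23 to 0.82 and Hoxa11 in subclone 23 to 0.75. With a pseudocount of 1, 2 Hox genes were called apart in subclone 2, 1 in subclone 3, 5 in subclone 19, 5 in subclone 23, 1 in subclone 24 and 2 in subclone 28. With the mean of each gene's probe sets, 0 were called apart in subclone 2 and 3 in subclone 18, and 0 cofactor, 0 Polycomb and 1 trithorax genes had a range of at least 1. Hoxa10 in subclone 18 then came to 0.79 and Hoxc5 in subclone 19 to 0.53.

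With 1 array left out at a time, 13 to 14 Hox genes had such a range, 22 to 24 passed the F-test, 5 were called apart in subclone 18, 3 to 4 in subclone 19 and 2 to 3 in subclone 23. The Polycomb count was 1 to 3, with 1 when the first or second array of subclone 2 or the second of subclone 18 was left out, and the trithorax count 0 to 1, with 1 without the first array of subclone 18. The F-test of Hoxb6 was lost under quantile normalization, the block, and without the first array of subclone 23 or the first or last of subclone 24, and that of Hoxa9 without the last array of subclone 19. Hoxc6 passed with the mean of its probe sets and without the last array of subclone 2. The causes were not tested.

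Same-numbered arrays of different subclones did not clearly deviate together (r from -0.28 to 0.19 over 77 pairs, median -0.007), so no pairing by replicate number was detected. Such correlations cannot exclude a weak one. With the replicate number as a block, 11152 of all genes and 22 Hox genes passed the F-test (11242 and 24 as reported), 13 Hox genes had a range of at least 1, and the counts called apart were 1, 5, 3 and 3 in subclones 2, 18, 19 and 23, as reported. Without detection calls, levels near the floor are the least certain.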
